A study of Mus musculus with 11 samples.

Results

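The 8 genes described here are glucocorticoid-induced genes, the metallothioneins and the glucocorticoid receptor itself, out of 19938 genes measured in mouse lung. They were chosen by symbol, with earlier results of these data known, and are Fkbp5, Tsc22d3, Zbtb16, Per1, Sgk1, Mt1, Mt2 and Nr3c1. Shares of all genes set beside counts of the 8 are therefore descriptions and no test of the set. Each of the 8 was found once, on a row of the array that maps to exactly 1 gene symbol, so no choice between rows of a gene was needed. All 8 stayed in the analysis, which set no filter on low values.

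Total RNA of lung tissue from 129S1 mice was hybridised to 11 Affymetrix arrays in a study of lung cancer suppression by aspirin and triptolide. Triptolide is a diterpenoid of the thunder god vine that inhibits transcription, and aspirin is an inhibitor of prostaglandin synthesis. The combination group (3 arrays) received aspirin at 4 mg per kg with triptolide at 1 mg per kg, the triptolide group (3 arrays) triptolide at 1 mg per kg, the aspirin group (3 arrays) aspirin at 4 mg per kg, and the control group (2 arrays) is titled untreated. Dosing was by gavage 5 days a week over 2 months. The protocol names a PBS group where the titles say untreated, so it is not settled whether the controls were gavaged. If they were not, gavage and drug cannot be told apart in any comparison against control. Age, sex and the hour of tissue collection are not given, and the labels do not say that arrays of a group came from separate animals, so p-values measure only the spread between these samples.

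Glucocorticoids are steroid hormones of the adrenal gland whose level in blood follows the day and climbs under stress. They cross the cell membrane and bind the receptor encoded by Nr3c1, which is held ready by the Hsp90 chaperone machine, moves to the nucleus and binds DNA at palindromic response elements near its target genes. Lung is a classical target tissue, where the hormone drives maturation of the airspaces and restrains inflammation. Metallothioneins are small cysteine-rich proteins that bind zinc, copper and cadmium. Their genes respond to metals through the factor Mtf1, which binds short metal response elements, and they also respond to glucocorticoids.

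Promoter sequences are shown for 4 members, the metallothioneins for their metal response cores, Sgk1 for the receptor's palindrome and Per1 for its clock element. RefSeq windows of the GRCm38.p6 build, from 250 bases before to 50 after a start site, were found for 6 of the 8 members, and windows of Zbtb16 and Nr3c1 were not used here. Mt1 and Mt2 lie beside each other on chromosome 8, and in their windows the capitals mark every match, on either strand, to the metal response core TGCACNC or TGCGCNC. In the Sgk1 window the capitals mark the palindromic glucocorticoid response element, AGAACA and TGTTCT with any 3 bases between them, and in the Per1 window the E-box CACGTG, the element bound by clock activators. Each run is printed 5′ to 3′ as far as 30 bases after the start site.
Mt1, chr8:94178839-94179118, plus strand: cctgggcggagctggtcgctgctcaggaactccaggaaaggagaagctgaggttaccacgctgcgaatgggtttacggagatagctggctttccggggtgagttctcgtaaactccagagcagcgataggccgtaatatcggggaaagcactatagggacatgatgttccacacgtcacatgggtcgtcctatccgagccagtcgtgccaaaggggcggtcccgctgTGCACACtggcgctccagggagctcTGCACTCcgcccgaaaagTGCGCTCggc
Mt2, chr8:94172368-94172647, plus strand: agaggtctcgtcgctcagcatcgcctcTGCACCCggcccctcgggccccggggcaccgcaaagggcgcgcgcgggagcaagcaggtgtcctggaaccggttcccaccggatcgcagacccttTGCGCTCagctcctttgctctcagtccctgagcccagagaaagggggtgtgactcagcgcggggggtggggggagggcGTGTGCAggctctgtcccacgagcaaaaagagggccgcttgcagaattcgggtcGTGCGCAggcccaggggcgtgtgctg
Sgk1, chr10:21993640-21993919, plus strand: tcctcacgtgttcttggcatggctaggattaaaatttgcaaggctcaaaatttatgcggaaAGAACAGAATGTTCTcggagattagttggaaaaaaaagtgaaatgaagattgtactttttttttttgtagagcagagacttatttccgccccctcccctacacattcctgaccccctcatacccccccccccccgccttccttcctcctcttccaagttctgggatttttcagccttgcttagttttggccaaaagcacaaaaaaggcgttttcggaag
Per1, chr11:69098699-69098978, plus strand: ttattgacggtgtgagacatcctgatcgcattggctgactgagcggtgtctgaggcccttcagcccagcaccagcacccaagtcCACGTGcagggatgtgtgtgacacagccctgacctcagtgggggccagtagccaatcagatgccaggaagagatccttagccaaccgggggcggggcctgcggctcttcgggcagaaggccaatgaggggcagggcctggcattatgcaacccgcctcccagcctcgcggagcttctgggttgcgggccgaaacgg

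The Mt1 window held 3 matches to the metal response core, at -23, 3 and 21 from the start site, and the Mt2 window held 4, at -223, -128, -50 and 5. The start site of the only Mt1 window lies inside the gene, whose first base is at 94178883. That of Mt2 is the first base of its gene, so the positions in Mt1 and Mt2 are not directly comparable. Of 32851 windows of 27025 genes, 25.7% held at least 1 match to the metal response core and 1.97% held 3 or more. The palindromic element lay at -189 in 1 of the 6 Sgk1 windows, and 3 of all windows held it, or 0.00913%. Per1 had CACGTG at -166 in 1 of its 2 windows and Fkbp5 had it at -169, as did 7.15% of all windows. The first bases of the same Sgk1 window also hold a CACGTG, at -246, which is left in lower case. A metal response core was found once in the other Per1 window, at -69, and once in another of the Sgk1 windows, at 12. None of these motifs was found in the 3 windows of Tsc22d3, of which 1 holds AGAACA by itself, read on the opposite strand, at -185, as 19% of all windows do on either strand. Matches are descriptions of these letters, and factor binding was not measured.

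Values are log2 levels, and a difference is given on the log2 scale with the standard error of 1 limma fit over all arrays. Correlations between arrays over all genes ran from 0.9474 to 0.9965. A first principal component with 45.5% of the variance set combination 1 apart, at 60.2, from the other arrays, at -15.0 to 6.8. The 8 lung markers had a mean of 12.27 to 13.22 on every array, above the upper quartile of all gene values at 9.64, and the 4 liver markers had 6.23 to 6.60, under the lower quartile at 7.48. Xist, a marker of female cells, read 12.26 to 12.80 with the combination, 12.32, 9.75 and 6.61 on triptolide 1, 2 and 3, 6.77 to 6.996 with aspirin, and 11.98 and 12.07 in control. The Y-linked gene Eif2s3y read 5.40, 4.58 and 6.76 with the combination, 6.39, 9.82 and 9.56 with triptolide, 9.26, 9.48 and 9.45 with aspirin, and 5.29 and 5.05 in control. Aspirin arrays therefore differ in sex-linked RNA from every control and every combination array, and a difference in any other gene in these comparisons cannot be told apart from it. Triptolide 2 and 3 also differ from both control arrays in these genes, so the same limit holds for triptolide against control. Combination arrays are near control in Xist, while Eif2s3y stood above both control arrays on combination 1, at 5.40, and on combination 3, at 6.76.

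Under each treatment 6 of the 8 genes had a higher mean than in control and the receptor gene Nr3c1 a lower one, while Sgk1 lay within 0.17 of control in all 3. Zbtb16 and Fkbp5 had the largest differences, with mean levels 2.69 and 2.29 times those of control in the combination, and Mt2 had 2.03 times. limma called 0 genes in any comparison of the 4 groups at an adjusted p under 0.05, which is 0% of those tested, so none of the 8 passed. The differences that follow are therefore sizes with their errors. All 3 treatments are set against the same 2 control arrays, and limma's adjusted p was 1 for each of the 8 genes with triptolide and with aspirin.

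**Figure D1:**
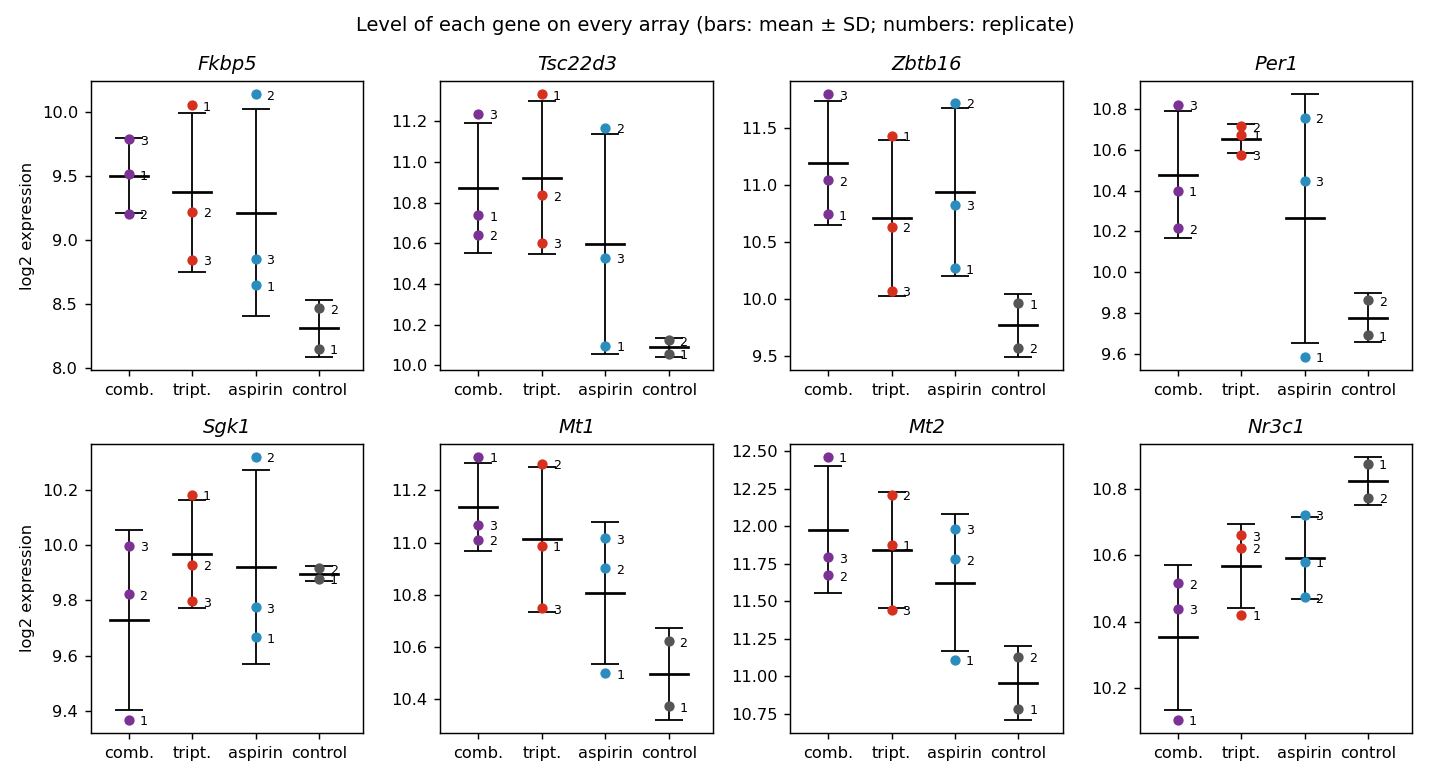
Log2 level (vertical axes, which differ between panels and do not start at 0) of each of the 8 genes on every array, with 1 point per array numbered by replicate, and bars for the mean ± SD of the combination, triptolide, aspirin and control groups from left to right. For Fkbp5, Tsc22d3, Zbtb16, Per1, Mt1 and Mt2 all triptolide and combination arrays lie above both control arrays, and for Nr3c1 all lie below them.

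Fkbp5 encodes a co-chaperone of Hsp90 that lowers the receptor's affinity for hormone and is itself induced by the receptor, closing a short feedback loop. Its level was 9.51, 9.20 and 9.79 on the combination arrays, 10.05, 9.22 and 8.84 on the triptolide arrays, 8.64, 10.14 and 8.85 on the aspirin arrays, and 8.15 and 8.47 on the control arrays. All treated arrays lay above both control arrays, and the aspirin and triptolide groups each had 1 array far above the rest. The difference from control was 1.19 ± 0.43 in the combination (95% interval 0.25 to 2.14, limma adjusted p = 0.24), 1.06 ± 0.43 with triptolide (0.12 to 2.01) and 0.90 ± 0.43 with aspirin (-0.04 to 1.85). Without aspirin 2 the aspirin difference was 0.44, and that array alone stood 1.83 above the control mean.

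Tsc22d3, the glucocorticoid-induced leucine zipper that restrains inflammatory transcription, read 10.74, 10.64 and 11.24 with the combination, 11.33, 10.84 and 10.60 with triptolide, 10.10, 11.17 and 10.53 with aspirin, and 10.06 and 10.12 in control. The control arrays were close together, and of the treated arrays aspirin 1 alone fell between them. Tsc22d3 differed from control by 0.78 ± 0.30 in the combination (95% interval 0.12 to 1.44, limma adjusted p = 0.268), by 0.83 ± 0.30 with triptolide (0.18 to 1.49) and by 0.51 ± 0.30 with aspirin (-0.15 to 1.17). The aspirin difference was 0.22 without aspirin 2.

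Zbtb16 encodes a zinc finger transcription repressor that is strongly induced by glucocorticoids in many cell types. Levels were 10.74, 11.05 and 11.80 on combination arrays, 11.43, 10.63 and 10.07 on triptolide arrays, 10.27, 11.73 and 10.83 on aspirin arrays, and 9.96 and 9.57 on control arrays. Every treated array lay above both control arrays, and within each treated group the arrays spread by more than 1 log2 unit. The difference was 1.43 ± 0.46 in the combination (95% interval 0.41 to 2.45, limma adjusted p = 0.198), 0.95 ± 0.46 with triptolide (-0.08 to 1.97) and 1.17 ± 0.46 with aspirin (0.15 to 2.196). The spread within a treated group (SD 0.54 with the combination, 0.68 with triptolide and 0.74 with aspirin, n = 3 each) was wider than in control (SD 0.28, n = 2). Without triptolide 1 the triptolide difference was 0.59, and without aspirin 2 the aspirin difference was 0.78.

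Per1, a repressor of the circadian clock that is also a direct target of the receptor, stood at 10.40, 10.22 and 10.82 with the combination, at 10.67, 10.72 and 10.58 with triptolide, at 9.58, 10.76 and 10.45 with aspirin, and at 9.69 and 9.86 in control. The triptolide arrays were the tightest of the treated groups, and aspirin 1 read below both control arrays. Per1 differed by 0.70 ± 0.28 in the combination (95% interval 0.08 to 1.33, limma adjusted p = 0.296), by 0.88 ± 0.28 with triptolide (0.25 to 1.504) and by 0.49 ± 0.28 with aspirin (-0.14 to 1.11). Without aspirin 1 the aspirin difference was 0.83, and without aspirin 2 it was 0.24.

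Sgk1 encodes a kinase that raises sodium uptake in epithelia and is induced by glucocorticoids and by cell stress. It read 9.37, 9.82 and 9.998 with the combination, 10.18, 9.93 and 9.80 with triptolide, 9.67, 10.32 and 9.78 with aspirin, and 9.88 and 9.92 in control. Treated arrays lay on both sides of the control arrays in every group. Sgk1 differed by -0.17 ± 0.22 in the combination (95% interval -0.64 to 0.31, limma adjusted p = 0.793), by 0.07 ± 0.22 with triptolide (-0.41 to 0.55) and by 0.02 ± 0.22 with aspirin (-0.45 to 0.50). Without combination 1, its lowest array, the combination difference was 0.01. Sgk1 is the member whose window holds the palindromic element shown above.

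The metallothionein genes had nearly the same order of arrays. Mt2 read 12.46, 11.67 and 11.79 on combination arrays, 11.87, 12.21 and 11.44 on triptolide arrays, 11.11, 11.78 and 11.98 on aspirin arrays, and 10.78 and 11.13 on control arrays. Aspirin 1 lay just under the higher control array and every other treated array above both. Mt2 differed by 1.02 ± 0.31 in the combination (95% interval 0.34 to 1.70, limma adjusted p = 0.173), by 0.89 ± 0.31 with triptolide (0.21 to 1.57) and by 0.67 ± 0.31 with aspirin (-0.01 to 1.35).

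Mt1 read 11.33, 11.01 and 11.07 with the combination, 10.99, 11.30 and 10.75 with triptolide, 10.50, 10.90 and 11.02 with aspirin, and 10.37 and 10.62 in control. Again aspirin 1 alone among the treated arrays fell between the control arrays. Its differences were smaller than those of Mt2, at 0.64 ± 0.19 in the combination (95% interval 0.22 to 1.06, limma adjusted p = 0.169), 0.52 ± 0.19 with triptolide (0.10 to 0.93) and 0.31 ± 0.19 with aspirin (-0.11 to 0.73). The Mt1 aspirin difference was 0.18 without control 1, 0.20 without aspirin 3 and 0.46 without aspirin 1. Without combination 1, the highest array for both genes in its group, the combination differences were 0.78 for Mt2 and 0.54 for Mt1.

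Nr3c1, the glucocorticoid receptor, was the member that lay below control. It read 10.10, 10.52 and 10.44 with the combination, 10.42, 10.62 and 10.66 with triptolide, 10.58, 10.47 and 10.72 with aspirin, and 10.88 and 10.77 in control. All treated arrays lay below both control arrays. The difference was -0.47 ± 0.13 in the combination (95% interval -0.77 to -0.17, limma adjusted p = 0.153), a level 0.721 times that of control, and it was -0.26 ± 0.13 with triptolide (-0.55 to 0.04) and -0.23 ± 0.13 with aspirin (-0.53 to 0.07). Without combination 1, its lowest array, the combination difference was -0.35. The mean level of 10 endothelial markers, among them the junction cadherin Cdh5, lay at 10.80 to 11.30 with the combination, 11.37 to 11.74 with triptolide, 11.67 to 11.81 with aspirin and 11.86 to 11.96 in control, with 0 of the 10 above control in the combination and combination 1 again lowest. Combination 1 was also lowest for the means of lung (12.27), fibroblast and matrix (9.91) and alveolar macrophage (10.055) markers. It was highest for those of B and plasma cell (11.06) and erythroid (11.61) markers. Of the 6 alveolar macrophage markers 3 lay above control in the combination and 3 below, with Car4 at -0.93 ± 0.16 and Marco at 0.20 ± 0.24. The part of any of these markers in the Nr3c1 difference was not tested. In bulk lung fewer cells of a type and less RNA per cell cannot be told apart.

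**Figure D2:**
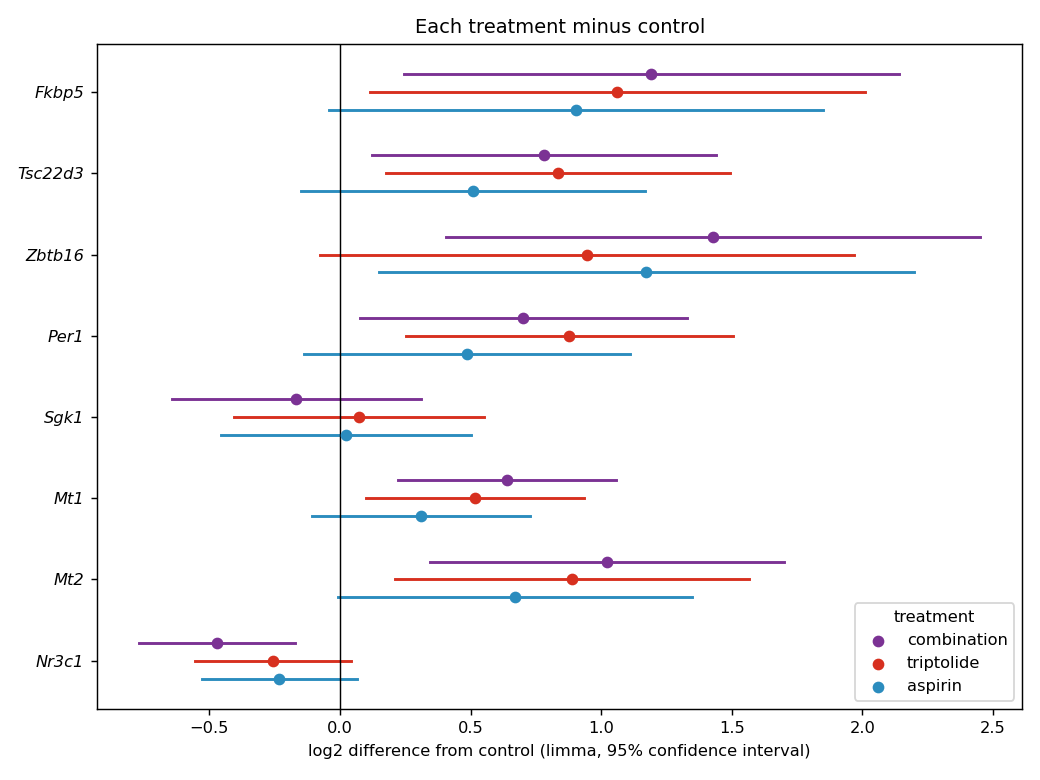
Log2 difference from control (horizontal axis) of each gene in the combination, triptolide and aspirin groups, from the limma fit, with 95% confidence intervals as bars. The intervals of Fkbp5, Tsc22d3, Per1, Mt1 and Mt2 lie above 0 for the combination and for triptolide, that of Nr3c1 lies below 0 for the combination alone, and those of Sgk1 span 0 in all 3 treatments.

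In the combination 6 of the 8 genes were higher and 1 was lower at an unadjusted limma p under 0.05, against 3.41% of all genes higher and 10.6% lower. The groups did not overlap in 7 of the 8, of which 6 were higher and 1 lower, where 14.2% of all genes were higher without overlap and 20.5% lower. The count of 7 under an unadjusted p of 0.05 was the same without combination 1, was 4 without control 2 and without combination 3, and was 2 without control 1. The median difference over the 8 was 0.74, beside 0.01 over all genes. Of 9 B and plasma cell markers 8 lay above control in the combination, with a mean level of 10.50 to 11.06 there and 9.83 to 9.86 in control, and the lung marker mean was 12.27 to 12.93 in the combination and 13.10 in control. Their part in the members' differences was not tested.

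With triptolide alone 5 of the 8 were higher and 0 lower at an unadjusted p under 0.05, against 1.16% and 1.66% of all genes. Again 6 lay higher than control without overlap and 1 lower, where 9.92% of all genes lay higher and 13.3% lower. Removing 1 array changed the count of 5 to 0 without control 1 and to 3 without control 2, triptolide 1 or triptolide 2. The median was 0.86 over the 8 and -0.01 over all genes. Triptolide 2 and 3 differ from both control arrays in sex-linked RNA, and these differences cannot be told apart from that.

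For aspirin alone only Zbtb16 was under an unadjusted p of 0.05, a count of 1 higher and 0 lower, against 1.35% and 1.71% of all genes. Fkbp5 and Zbtb16 lay higher than control without overlap and Nr3c1 lower, where 10% of all genes lay higher and 16% lower. Aspirin 1 was the lowest of its group for every member except Nr3c1, and without it the count was 6, while without aspirin 2 or control 2 it was 0. The median difference over the 8 was 0.50, and -0.0047 over all genes.

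Over the 6 triptolide and combination arrays together, 6 of the 8 genes lay above both control arrays on every array and 1, Nr3c1, below on every array, where 3.58% of all genes lay above and 7.08% below. Over all 9 treated arrays 2 of the 8, Fkbp5 and Zbtb16, lay above both control arrays and Nr3c1 below, where 1.67% of all genes lay above and 4.26% below.

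The sex-linked level was entered as a covariate, an alternative chosen after the data were seen, because aspirin and control differ in it. The 8 genes kept the sign of their differences from control. Fkbp5 differed by 1.28 in the combination, 1.66 with triptolide and 1.66 with aspirin. Zbtb16 differed by 1.52 in the combination, 1.54 with triptolide and 1.93 with aspirin, and Nr3c1 by -0.49 in the combination, -0.40 with triptolide and -0.42 with aspirin. Per1 and Mt1 had smaller aspirin differences, at 0.26 and 0.18, and the count of members under an unadjusted p of 0.05 was 2 with triptolide. The covariate rests largely on triptolide 1, the only triptolide array with Xist near the control level, where Fkbp5, Tsc22d3 and Zbtb16 were highest of their group. Triptolide 2 read 9.82 in Eif2s3y, near the aspirin arrays, while its Xist, which is not in the covariate, was 9.75.

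The design also asks what each drug adds to the other. Set against aspirin alone the combination differed most in Mt2, at 0.35 ± 0.27 (95% interval -0.25 to 0.96), and in Mt1, at 0.33 ± 0.17 (-0.04 to 0.70), while Nr3c1 differed by -0.24 ± 0.12 (-0.51 to 0.03). Against triptolide alone the combination differed most in Zbtb16, at 0.48 ± 0.41 (-0.43 to 1.40), and Tsc22d3 by -0.05 ± 0.27. limma gave 0 of the 8 at an unadjusted p under 0.05 in either comparison, against 11.6% of all genes for the combination against aspirin and 13.6% against triptolide, and adjusted p ran from 0.403 to 0.914. The arrays of the combination overlapped with those of each single drug in all 8 genes, so the order of the 3 treated groups is not resolved for any of them. Combination arrays also differ in sex-linked RNA from all aspirin arrays and from triptolide 2 and 3, and what a drug adds cannot be told apart from that in either comparison. With the sex-linked covariate the difference from aspirin turned to -0.38 in Fkbp5, -0.06 in Tsc22d3 and -0.41 in Zbtb16, and the difference from triptolide to -0.38 in Fkbp5 and -0.02 in Zbtb16.

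Averaged over the presence of the other drug, triptolide differed by 0.55 ± 0.19 in Per1 (limma adjusted p = 0.382), 0.42 ± 0.13 in Mt1 (adjusted p = 0.292) and 0.62 ± 0.21 in Mt2 (adjusted p = 0.352). With Fkbp5 and Tsc22d3 that made 5 of the 8 higher at an unadjusted p under 0.05 and 1, Nr3c1 at -0.25 ± 0.09, lower, against 2.76% and 5.89% of all genes. The averaged difference for aspirin was 0.83 ± 0.31 in Zbtb16 (limma adjusted p = 0.455) and -0.22 ± 0.09 in Nr3c1 (adjusted p = 0.458), 1 higher and 1 lower, against 2.32% and 8.11% of all genes. Without control 1 the count of 6 for triptolide was 1.

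The interaction, which is 0 when the drugs add up on the log2 scale, was below 0 in 7 of the 8 genes, from -0.77 ± 0.58 in Fkbp5 to -0.19 ± 0.25 in Mt1, and it was 0.02 ± 0.18 in Nr3c1. limma gave 0 of the 8 at an unadjusted p under 0.05, against 3.42% of all genes, with an adjusted p of 0.895 or more. Its intervals are wide, such as -2.04 to 0.50 for Fkbp5, so neither a sum of the single effects nor a shortfall from it was resolved. The 4 sex-linked genes had a median interaction of -4.19, and an interaction of the drugs in the 8 genes cannot be told apart from that difference between the arrays.

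The members fall into groups by which array of a treatment was highest. Fkbp5, Tsc22d3, Zbtb16 and Sgk1 were each highest on aspirin 2 in the aspirin group, on triptolide 1 in the triptolide group and on combination 3 in the combination group, an arrangement shared by 545 genes or 2.73% of all. Mt1 and Mt2 were each highest on aspirin 3, triptolide 2 and combination 1, which 469 genes or 2.35% shared. Per1 was highest on aspirin 2, triptolide 2 and combination 3.

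**Figure D3:**
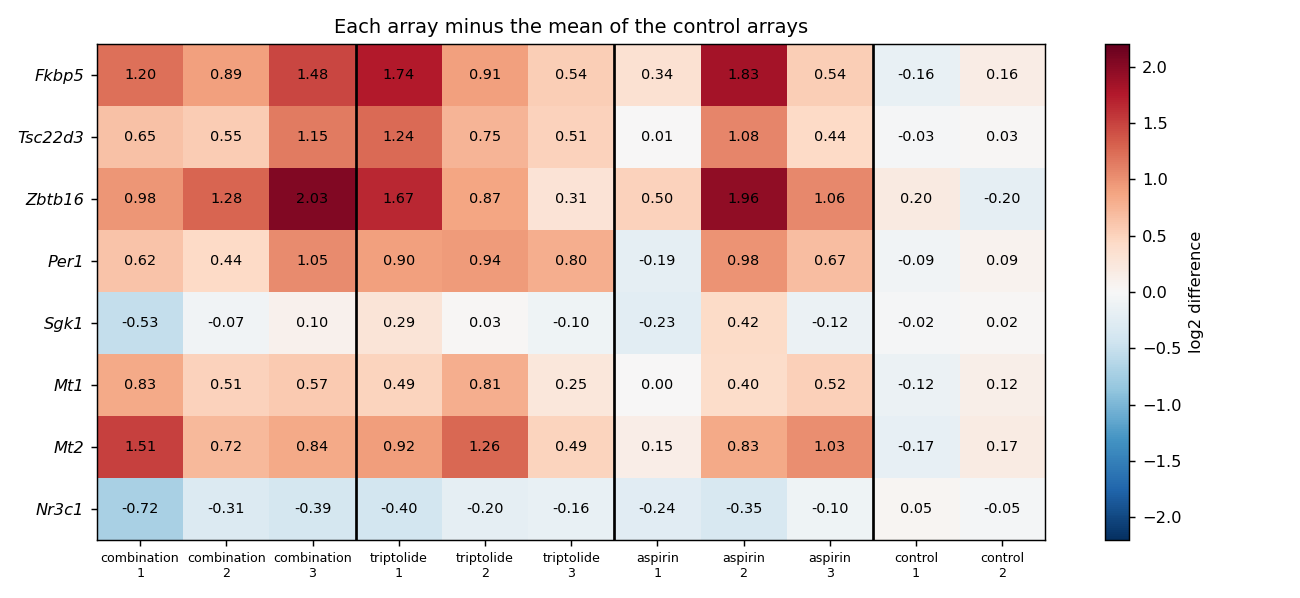
Each array minus the mean of the control arrays on the log2 scale (colour and printed value), with genes in rows and the combination, triptolide, aspirin and control arrays in columns from left to right. Fkbp5 and Zbtb16 reach 1.83 and 1.96 on aspirin 2 and 0.34 and 0.50 on aspirin 1, and Mt2 reaches 1.51 on combination 1.

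Markers of blood and muscle cells also differed between these arrays. The mean of 10 neutrophil markers was 11.11 on aspirin 2, against 8.11 and 7.88 on the other aspirin arrays, 7.75 to 8.35 with the combination, 8.001 to 8.87 with triptolide, and 7.91 and 7.92 in control. All 10 of them lay above control with aspirin and with triptolide, and 7 in the combination. Their mean was 8.001 on triptolide 1 and 7.997 on combination 3, the other arrays where Fkbp5, Tsc22d3, Zbtb16 and Sgk1 stood highest. The 5 erythroid markers had a mean of 11.61 on combination 1, where Mt1 and Mt2 stood highest, and of 7.49 on triptolide 2 and 8.66 on aspirin 3, where they also stood highest. The 10 cardiac muscle markers were highest on triptolide 3, at 11.43, and on aspirin 2, at 11.01. Whether each of these markers was detected on every array is not known, and their part in the members' differences was not tested.

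Other genes known to be induced by glucocorticoids were taken from a list of 28, of which 27 were measured. In the combination 17 of the 27 lay above control with a median difference of 0.11, where 52.8% of all genes did. With triptolide 23 lay above with a median of 0.28, against 45% of all genes, and with aspirin 21 with a median of 0.08, against 48.3%. limma called 0 of them. In each comparison 1, Cebpd, a transcription factor of the acute phase, was higher at an unadjusted p under 0.05 and 0 were lower. At that threshold 3.41% of all genes were higher in the combination, 1.16% with triptolide and 1.35% with aspirin. The shares lower were 10.6%, 1.66% and 1.71%. Cebpd differed by 0.68 ± 0.20 in the combination (adjusted p = 0.174), 0.96 ± 0.20 with triptolide and 0.45 ± 0.20 with aspirin. Zfp36, which destabilises cytokine mRNA, differed by 0.22 in the combination, 0.46 with triptolide and 0.11 with aspirin. Klf15, a metabolic transcription factor, differed by 0.39 in the combination, 0.44 with triptolide and 0.36 with aspirin. The repressor Bcl6 differed by 0.09 in the combination, 0.39 with triptolide and 0.04 with aspirin. The list's mean level was 10.46 on aspirin 2, 10.37 on triptolide 1 and 10.28 on combination 3, the same arrays that were highest for Fkbp5, and 9.91 and 9.92 in control. It was below both control arrays on combination 1, at 9.87, and on aspirin 1, at 9.75.

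Genes that handle steroid hormone or partner the receptor lay lower in the combination, with 3 of 14 measured above control and a median of -0.10, beside 8 of 14 with triptolide and 6 of 14 with aspirin. These counts stand beside 52.8% of all genes above control in the combination, 45% with triptolide and 48.3% with aspirin. The named members were Abcb1a, a pump that exports steroids and drugs, at -0.64 ± 0.16 in the combination (limma adjusted p = 0.114), Hsd11b1, which regenerates active hormone, at -0.51 ± 0.23, H6pd, which supplies its cofactor, at -0.43 ± 0.18 and the coactivator Ncoa2 at -0.15 ± 0.08. With triptolide Abcb1a differed by -0.29 and the other 3 by -0.07 to -0.01, and with aspirin Abcb1a differed by -0.25 and the other 3 by -0.09 to -0.03. The list's lowest array was combination 1, at 9.82, with combination 3 at 10.12 and control at 10.13 on both arrays.

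The chaperones that fold and hold the receptor lay above control in 13 of the 15 measured in the combination, with a median of 0.21, in 13 with triptolide, with a median of 0.15, and in 1 with aspirin, with a median of -0.13. Of all genes 52.8% lay above control in the combination, 45% with triptolide and 48.3% with aspirin. Hsph1, an exchange factor of Hsp70, differed by 1.11 ± 0.18 in the combination (limma adjusted p = 0.0579), 0.68 ± 0.18 with triptolide and -0.12 ± 0.18 with aspirin. Hsp90aa1, the inducible Hsp90, differed by 0.43 in the combination, 0.19 with triptolide and -0.12 with aspirin. Stip1, which links Hsp70 to Hsp90, differed by 0.49 in the combination, 0.21 with triptolide and -0.12 with aspirin, and Hspa8, the constitutive Hsp70, by 0.23 in the combination, 0.29 with triptolide and -0.06 with aspirin. Fkbp5, a co-chaperone of the same machine, lay above control in all 3 treatments.

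The list of metal response genes other than Mt1 and Mt2 takes in metal transporters, ferritins and antioxidant genes. Its median therefore does not show how targets of Mtf1 alone stood. The list had 11 of 22 genes above control in the combination (median -0.01), 10 with triptolide (median -0.03) and 12 with aspirin (median 0.01). The shares of all genes above control were 52.8%, 45% and 48.3% in that order. Among the zinc transporters, Slc39a10 differed by -0.44 ± 0.12 in the combination (limma adjusted p = 0.141), Slc39a8, which imports zinc and manganese, by -0.46 ± 0.14 and Slc30a4, an exporter, by -0.60 ± 0.21. Slc11a2, the iron importer, differed by 0.47 ± 0.09 (adjusted p = 0.0699). Slc11a2 also serves iron uptake in erythroid cells, whose markers had a mean of 11.61, 7.88 and 7.61 on combination 1, 2 and 3. Slc11a2 itself read 10.23, 10.24 and 10.30 on these arrays. The part of erythroid cells in its difference was not tested.

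Clock genes other than Per1 lay above control in 11 of the 16 measured in the combination (median 0.33), 12 with triptolide (median 0.49) and 12 with aspirin (median 0.37). Beside these counts, 52.8%, 45% and 48.3% of all genes lay above control in that order. Ciart, a clock repressor, differed by 0.87 ± 0.28 in the combination, 0.79 ± 0.28 with triptolide and 1.02 ± 0.28 with aspirin, and Per2, the close relative of Per1, by 0.82 ± 0.28 in the combination, 0.67 ± 0.28 with triptolide and 1.02 ± 0.28 with aspirin. Tef, a clock output factor, differed by 0.43 in the combination, 0.48 with triptolide and 0.71 with aspirin. The activator Clock differed by -0.73 in the combination, -0.26 with triptolide and -0.38 with aspirin. The smallest limma adjusted p of these 4 was 0.172, that of Clock in the combination. The hour of collection is not given, so time of day and treatment cannot be told apart for Per1 or for these genes. The same limit holds for the other members, since glucocorticoid level follows the day.

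**Figure D4:**
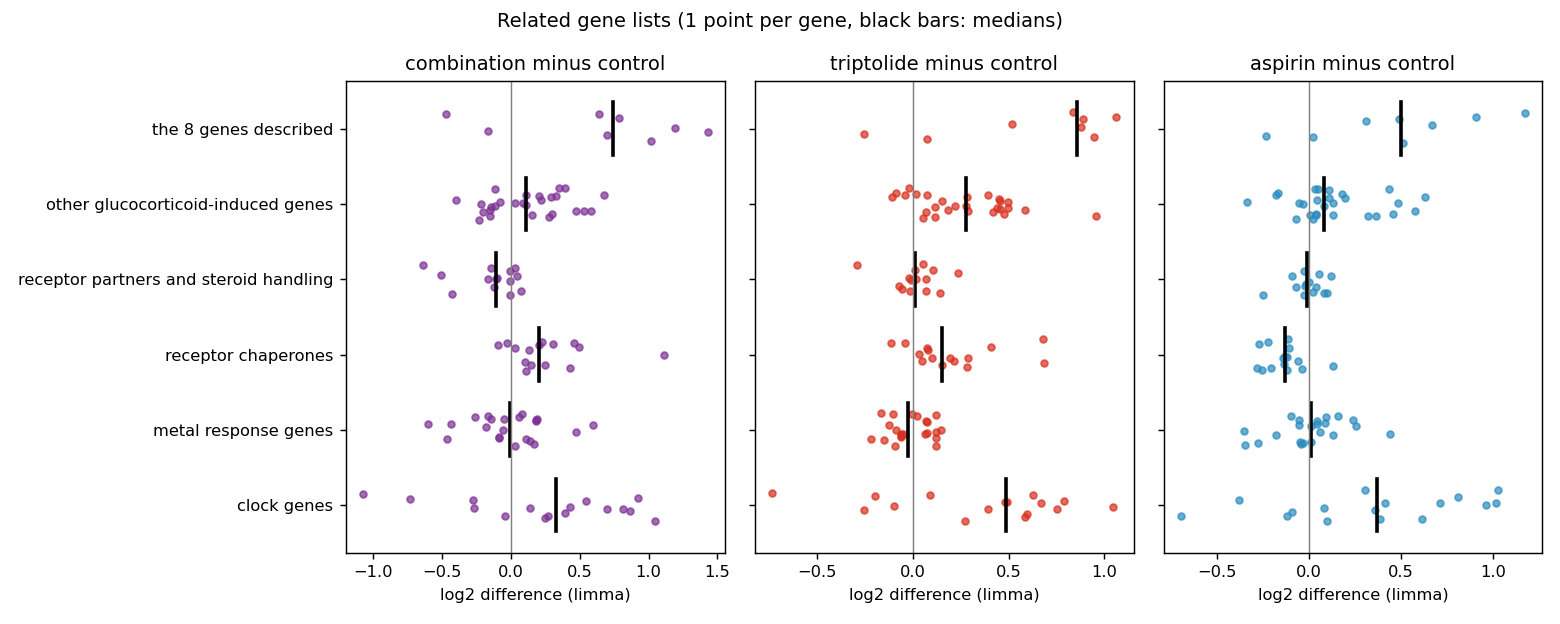
Log2 difference from control (horizontal axis) of every measured gene of the 8 and of the related lists, in the combination, triptolide and aspirin groups, with 1 point per gene and a black bar at the median. The median of the 8 is 0.74 in the combination, 0.86 with triptolide and 0.50 with aspirin, and the receptor chaperones have medians of 0.21 in the combination, 0.15 with triptolide and -0.13 with aspirin.

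The genes most like each member across the 11 arrays are given as a description, since the arrays share their groups and differ in the marker levels above. Mt1 and Mt2 were most like each other, with Pearson's r of 0.976, and next came Wee1, a kinase that delays mitosis, at 0.940 with Mt1 and 0.950 with Mt2, and Fam133b at 0.926 and 0.897. Fkbp5 and Tsc22d3 were most like each other at 0.954, and Map3k6, a stress kinase of the list of glucocorticoid-induced genes, followed at 0.921 with Fkbp5 and 0.941 with Tsc22d3. Gdpd1 stood at 0.915 with Fkbp5 and Mgat4a at 0.918 with Tsc22d3. Zbtb16 was nearest to Glul, glutamine synthetase and a gene of the same list, at 0.929, then to Mbd1 at 0.915 and Trp53inp1 at 0.909.

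Per1 was nearest to Tsc22d3 at 0.909, then to Wipf1 at 0.903 and Ccn2, a matrix-associated growth factor, at 0.898. Sgk1 was nearest to none of the other members but to Susd6 at 0.954, Nampt, an enzyme of NAD synthesis, at 0.949 and the death receptor Fas at 0.943. Nr3c1 was nearest to Tmem178 at 0.972, Ripply3 at 0.964 and Hs2st1, which sulfates heparan, at 0.963. Without combination 1, over 10 arrays, these values ran from 0.855, for Mt2 with Fam133b, to 0.971, for Mt1 with Mt2, and Sgk1 with Fas came to 0.894.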

How the data were processed

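As deposited, the values are on a log2 scale for 35556 rows of 11 arrays. RMA and Partek are named in the submitters' processing notes, with versions, settings and any filter not given in the sources used here. Per the labels' protocols, RNeasy columns gave the RNA, of which 100 ng was labelled. Array medians ran from 8.135 to 8.254, and there is no detection call. Precision is limited by how many arrays there are. GEO's platform annotation named the rows: 21789 of them carried 1 symbol, 1621 several and 12146 were unnamed, and the row with the highest mean stood for each of 999 genes with several rows, leaving 19938 genes. No symbol needed updating against the GRCm38.p6 RefSeq gene table (0 changed). No columns of other samples were present.

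One limma model (3.58.1, R 4.3.3, with lmFit, contrasts.fit and eBayes) covered all 11 arrays and 4 groups, with no covariate and with 7 residual and 3.68 prior degrees of freedom. There were 8 contrasts: each treatment against control, the combination against each drug, the mean effect of each drug and their interaction. Two-sided p-values had a Benjamini-Hochberg adjustment across all genes, with a call at an adjusted p under 0.05. The fit was tested on simulated data. Groups were called non-overlapping when every array of 1 lay beyond every array of the other.

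The 8 members and the gene lists were chosen with earlier results of these data known. All members are named, and of each list the members that passed or, where none did, the 4 with the smallest p against control. For each member the 3 genes with the highest Pearson correlation are named, skipping predicted genes, clones, small RNAs, and receptor and immunoglobulin families. Alternatives were centring or quantile normalization of the arrays, no moderation, array weights, a variance trend, leaving out the genes of lowest mean, the mean of a gene's rows, a replicate block and leaving out each array. A covariate of sex-linked level was added after the data were seen. Promoter windows and motifs were read from RefSeq sequences of GRCm38.p6.

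Replicate numbers recur in the titles of the groups. Deviations from group means correlated between -0.139 and 0.329 for 15 pairs of arrays with the same number and between -0.382 and 0.337 for 30 pairs with different numbers, so the numbers were not taken to pair the arrays.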

Additional observations from a re-analysis of the deposited data

How the results depend on the processing

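Over 20 alternatives the 8 genes kept the direction of their difference from control, except Sgk1, and most of the other reversals were of small add-on differences. Centring the arrays gave 83 genes called for the combination against control, 1 against aspirin and 2 for the mean effect of triptolide. Quantile normalization gave 3 and 1 for the first pair, and leaving out the genes of lowest mean gave 66 and 1. Array weights ran from 0.149 on combination 1 to 5.993 on aspirin 3, with 0.443 and 0.620 on aspirin 1 and 2. Triptolide 3 had 3.299, against 0.907 and 0.325 on triptolide 1 and 2. The weighted aspirin and triptolide differences therefore rest largely on 1 array each. With these weights genes called against control were 535 for aspirin, 10 for triptolide and 1704 for the combination. They were 873 for the combination against aspirin and 1 against triptolide. The mean effects of triptolide and aspirin had 938 and 1062, and the interaction had 16. Members called with these weights were 1 for aspirin (Mt2, limma adjusted p = 0.0201), 4 for the combination (Mt1, Mt2, Zbtb16 and Nr3c1, from 0.0346 to 0.0478) and 3 for the mean effect of aspirin. Members under an unadjusted p of 0.05 were, without moderation, 4 for the combination, 3 for triptolide, 0 for aspirin and 4 for the mean effect of triptolide. They were 6 for aspirin with array weights and 2 for triptolide with the sex-linked covariate, which also gave 96 genes for the combination. The replicate block, for numbers that were not taken to pair the arrays, gave 152 genes for the combination against control. It left members under an unadjusted p of 0.05 at 6 for the combination, 6 for triptolide and 0 for aspirin. No member was called with it at an adjusted p under 0.05.

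Leaving out 1 array gave 0 to 4 genes called for aspirin, 0 to 3 for triptolide, 0 to 896 for the combination, 0 to 704 and 0 to 24 for the combination against aspirin and against triptolide, 0 to 209 for the mean effect of triptolide and 0 to 6 for the interaction. The highest counts came without combination 3, or without triptolide 1 for the single drugs and the interaction, and 0 members were called in any of these fits. Members under an unadjusted p ran from 0 to 6 for aspirin, 0 to 6 for triptolide, 2 to 7 for the combination and 1 to 7 for the mean effect of triptolide.

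Sgk1 reversed with array weights for aspirin (-0.0805), triptolide (-0.0129), the combination against aspirin (0.0407), the mean effect of triptolide (0.0139) and the interaction (0.0536). Those weights also turned Mt2 against aspirin (-0.1479), Tsc22d3 against triptolide (0.0929, and 0.0616 with quantile normalization) and Nr3c1 in the interaction (-0.0133). The sex-linked covariate turned Fkbp5 (-0.3842), Tsc22d3 (-0.0572) and Zbtb16 (-0.4115) in the combination against aspirin, Fkbp5 (-0.3819) and Zbtb16 (-0.0248) against triptolide, and Mt1 in the interaction (0.0305). Over the fits that left out 1 array, Sgk1 ran from -0.1757 to 0.1502 with aspirin, -0.0338 to 0.1583 with triptolide, -0.3011 to 0.0132 in the combination, -0.3245 to 0.0087 against aspirin and -0.126 to 0.0406 for the mean effect of triptolide. Against aspirin Per1 ran from -0.1249 to 0.4624 and Zbtb16 from -0.0797 to 0.6489. Against triptolide Mt1 ran from -0.0084 to 0.2685, Mt2 from -0.1093 to 0.3184, Fkbp5 from -0.1331 to 0.47 and Tsc22d3 from -0.2344 to 0.1527, and Nr3c1 in the interaction from -0.064 to 0.1419. The cause of these changes was not tested. No detection call comes with the values, so a floor of signal could not be set.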
